A study of Mus musculus with 15 samples.

Results

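The mouse genes studied here are 6 members of the membrane-spanning 4A (MS4A) family: Ms4a1, Ms4a4b, Ms4a4c, Ms4a6b, Ms4a6c and Ms4a6d. They were chosen by symbol from a deposited table of 51912 Ensembl genes, in which 19 genes carry an Ms4a symbol. The libraries came from wild-type mouse B cells that were labelled as untreated and were grown for 6 days on 40LB cells, a feeder line that supports B cell growth, with IL-4 at 100 ng/ml. The D6 group is the whole, unsorted culture at that point. The other groups were sorted on day 8, after 2 days away from the feeder cells and without stimulation: iGC and PC cells of the IgE class, and iGC and PC cells of the IgG1 class, named IgE iGC, IgE PC and likewise for IgG1. IgE and IgG1 are the antibody classes the cells had switched to, PC stands for plasma cells, and iGC is the submitters' name for the sorted cells of the same class that were not plasma cells. Each group has 3 libraries labelled as biological replicates. The labels do not say whether replicates came from separate animals, so p-values measure the spread between these cultures. The study's title concerns what controls the formation and survival of IgE plasma cells, and the design compares all groups.

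MS4A proteins cross the membrane several times and act next to other surface receptors. The best known is CD20, the product of Ms4a1, which B cells carry from the precursor stage until they become plasma cells, and which is the target of antibodies used against B cell tumours. Ms4a4b has been described mainly in T cells, where it associates with costimulatory receptors and limits proliferation, whereas Ms4a6d and its relatives have been described mainly in macrophages and other myeloid cells. Another member of the cluster, Ms4a2, encodes the beta chain of the high-affinity receptor for IgE on mast cells and basophils.

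All 19 Ms4a genes lie on chromosome 19 of GRCm38, within 678.6 kb. Ms4a1 is on the minus strand at chr19:11249675-11266241. The other members lie within 200.1 kb of each other: Ms4a4c at chr19:11404770-11427246, Ms4a4b at chr19:11443553-11467055, Ms4a6c at chr19:11469366-11482192 and Ms4a6b at chr19:11516512-11531256, all on the plus strand, and Ms4a6d on the minus strand at chr19:11586604-11604849. The annotation (GENCODE vM21) lists each of them as protein coding. Apart from Ms4a1, the members belong to the Ms4a4 or the Ms4a6 subfamily. Within each subfamily they are close copies of one another, which matters for how short reads are assigned. The coding sequences of Ms4a4b and Ms4a4c were identical at 91.8% of aligned bases, those of Ms4a6b and Ms4a6c at 85.3%, those of Ms4a6b and Ms4a6d at 81.3% and those of Ms4a6c and Ms4a6d at 79.1%. The coding sequence of Ms4a1 was identical to the others at between 60.1% and 63.0% of aligned bases. Between the subfamilies, a Ms4a4 and a Ms4a6 member were identical at between 59.8% and 61.5%, so they are not close copies. The longest identical stretch of Ms4a4b and Ms4a4c runs for 127 bases, longer than the 76-base reads. It is shown here with its flanks, coding bases 311 to 457 counted from the A of the start codon, and capitals mark the bases that differ from Ms4a4c.
Ms4a4c: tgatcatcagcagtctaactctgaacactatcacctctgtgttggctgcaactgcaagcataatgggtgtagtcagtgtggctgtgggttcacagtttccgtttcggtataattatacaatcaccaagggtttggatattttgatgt
Ms4a4b: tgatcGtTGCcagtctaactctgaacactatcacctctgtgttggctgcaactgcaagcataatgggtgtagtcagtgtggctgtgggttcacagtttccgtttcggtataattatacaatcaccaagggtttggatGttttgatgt

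Among the Ms4a6 copies the longest identical stretch was 81 bases, between Ms4a6b and Ms4a6d. Coding bases 95 to 190 hold it, and capitals mark the bases that differ from Ms4a6b.
Ms4a6b: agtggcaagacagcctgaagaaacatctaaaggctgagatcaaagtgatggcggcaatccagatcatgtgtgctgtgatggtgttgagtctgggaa
Ms4a6c: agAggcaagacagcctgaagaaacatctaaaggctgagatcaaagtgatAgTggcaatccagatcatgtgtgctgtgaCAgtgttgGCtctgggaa
Ms4a6d: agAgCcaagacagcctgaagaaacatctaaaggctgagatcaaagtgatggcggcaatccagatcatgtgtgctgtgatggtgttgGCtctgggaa

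Reads of 76 bases seldom fall wholly inside such stretches. Of all 76-base windows in a gene's annotated transcripts, the share found also in a transcript of another gene was 3.66% for Ms4a4c, 2.78% for Ms4a6c, 1.14% for Ms4a4b, 0.589% for Ms4a6b, 0.350% for Ms4a6d and 0% for Ms4a1. Of the shared windows of Ms4a6c, 34 were shared with Prdm11, a gene outside the family, and 21 with Ms4a6b, and of those of Ms4a4b, 37 were shared with Ms4a2 and 64 with Ms4a4c. The deposited values are RSEM expected counts, in which a read that fits several genes is divided between them and so leaves a fractional count. Counts were fractional in 13 of 15 libraries for Ms4a4b and Ms4a4c, in 14 for Ms4a6b and Ms4a6c and in 6 for Ms4a6d. Every count of Ms4a1 was whole to within 0.005. In the whole table, 27.6% of the 17094 genes that reached 10 counts in a library had a fractional count in at least 1 library. The values of the 5 copies are therefore estimates of how reads divide between similar genes, and results for the summed counts of each subfamily are given beside their own.

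Total expected counts ran from 17.7 M in IgE iGC replicate 3 to 54.1 M in IgG1 PC replicate 2. All 7 B cell markers reached 1 TPM (a level per length of transcript, scaled to the same total in each library) in every group, with summed levels of 6042 to 6428 TPM in iGC libraries, 2948 to 3201 TPM in D6, 2625 to 3030 TPM in IgG1 PC and 1691 to 1875 TPM in IgE PC. The 7 plasma cell markers summed to 9926 to 11006 TPM in IgE PC and 6384 to 7728 TPM in IgG1 PC, against 607 to 680 TPM in IgE iGC, 318 to 328 TPM in IgG1 iGC and 354 to 377 TPM in D6. The PC libraries thus carried plasma cell markers and the iGC libraries B cell markers, as labelled. In sum, IgE PC libraries held more plasma cell and less B cell marker RNA than IgG1 PC libraries. Jchain was most of the plasma cell sum, at 8216 to 9324 TPM in IgE PC and 4920 to 6145 TPM in IgG1 PC. The ranges of Xbp1, Prdm1 and Cd22 overlapped between the PC groups, and those of the other plasma cell and B cell markers lay apart in the direction of the sums. Feeder fibroblast markers summed to 137 to 185 TPM in D6, 25.1 to 37.7 TPM in iGC, 28.0 to 57.4 TPM in IgG1 PC and 6.35 to 9.84 TPM in IgE PC. Of the 8 T cell markers at most 2 reached 1 TPM in any group, and Cd3e was at 0.02 TPM or less in every library, while Cd28 was at 13.1 to 14.2 TPM in IgE PC and 3.45 to 5.38 TPM in IgG1 PC, against 0.25 to 0.52 TPM in iGC. Of the 8 monocyte and macrophage markers at most 2 did, with Csf1r at 0.09 TPM or less and Cd68 at 10.3 to 21.7 TPM. Each library is a pool of cells, so fewer cells that express a gene and less RNA in each cell cannot be told apart.

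Ms4a1, which encodes CD20, was by far the most abundant member in every group. It was higher in both iGC groups than in the day 6 culture and lower in both plasma cell groups, by similar amounts in IgE and IgG1. Its level was 918, 917 and 895 TPM in the D6 libraries, 1409, 1326 and 1419 TPM in IgE iGC, and 1366, 1515 and 1521 TPM in IgG1 iGC. In plasma cells it was 315, 278 and 273 TPM for IgE and 188, 415 and 299 TPM for IgG1. The iGC, D6 and PC libraries formed separate ranges, and within iGC and within PC the isotypes overlapped. From iGC to PC, Ms4a1 fell by 1.52 ± 0.14 (SE) on the log2 scale in IgE cells (edgeR, adjusted p = 1.30e-07) and by 1.71 ± 0.14 in IgG1 cells (adjusted p = 8.36e-08). In CPM (counts scaled to a common library size, here with TMM factors), 34.9% of the iGC level remained in IgE PC and 30.5% in IgG1 PC. The difference between IgE PC and IgG1 PC was 0.13 on the log2 scale, with a 95% interval of -0.17 to 0.44 (adjusted p = 0.426), and that between IgE iGC and IgG1 iGC was -0.06 (-0.37 to 0.24, adjusted p = 0.914). The difference between the 2 changes from iGC to PC was 0.19 (-0.24 to 0.62, adjusted p = 0.450).

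The Ms4a1 comparison of plasma cells depended on single IgG1 PC libraries. Without IgG1 PC replicate 2, the highest of its group, IgE PC was higher by 0.37 (edgeR, adjusted p = 0.00200) and the difference of changes was 0.43 (adjusted p = 0.00755). Without IgG1 PC replicate 1, the lowest, IgE PC was lower by a log2 difference of -0.041. TPM values, which are not scaled by TMM, gave a larger fall from iGC to PC, of -2.26 in IgE and -2.35 in IgG1 by limma on log2(TPM + 1).

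**Figure D1:**
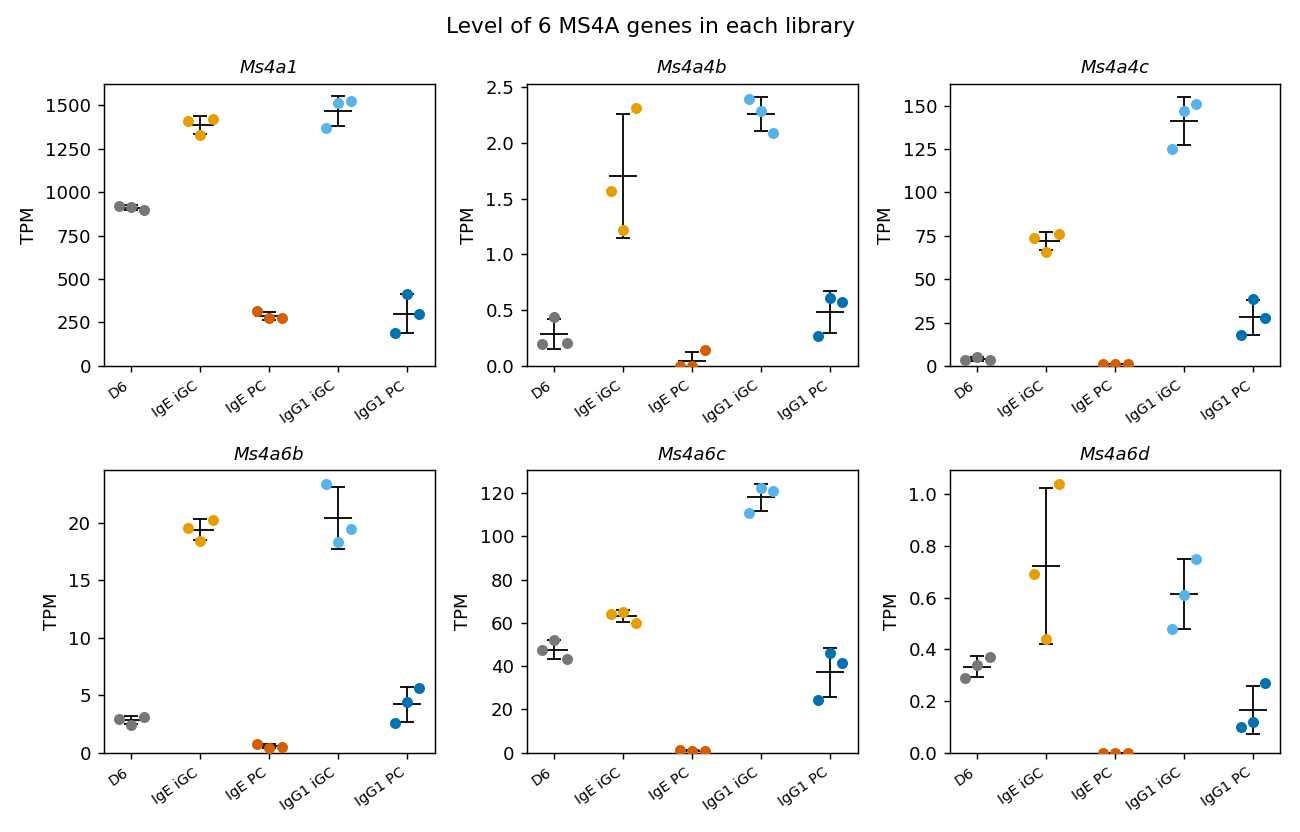
TPM (vertical axis, a separate linear scale from 0 for each gene) of the 6 MS4A genes in each of 15 libraries, by group; bars are the mean and SD of 3 libraries. Ms4a1 is at 273 to 315 TPM in IgE PC and 188 to 415 TPM in IgG1 PC, whereas the other 5 genes are at or near 0 in IgE PC and above that in IgG1 PC.

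The other 5 members behaved differently from Ms4a1 in IgE plasma cells. From iGC to PC they fell to between 0% and 4.93% of the iGC level in IgE cells, and to between 24.2% and 43.4% in IgG1 cells, on the CPM scale. All 6 members were called lower in PC than in iGC (adjusted p under 0.05) in each isotype, where 33.6% of the 15692 genes tested were called lower in IgE and 29.0% in IgG1. The members' median log2 fold change in IgE was -4.46, with Ms4a6d taken at the bound its zero counts allow, or -4.85 as fitted, against -0.08 over all genes. In IgG1 it was -1.75 against 0.01. Fits to only the groups compared tested 5 members in IgE and called 5 lower, as they did 5173 of 14069 genes. In IgG1 such a fit tested 6 members and called 5 lower, as it did 3645 of 14381 genes.

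Ms4a4c, a gene known to be induced by interferon, was among the highest members after Ms4a1. It was at 73.9, 65.9 and 75.8 TPM in IgE iGC and at 0.86, 1.10 and 1.04 TPM in IgE PC. In IgG1 cells it was at 125, 147 and 151 TPM in iGC and at 18.1, 38.4 and 27.7 TPM in PC. The IgE PC libraries thus lay below all others, and the IgG1 PC libraries lay between them and the iGC libraries without overlap. The fall was 5.27 ± 0.21 (SE) in IgE, a 38.5-fold change, and 2.04 ± 0.15 in IgG1, a 4.10-fold change (edgeR, adjusted p = 6.11e-12 and 1.77e-08).

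Ms4a6c was at 64.2, 65.2 and 60.1 TPM in IgE iGC and at 1.10, 1.00 and 0.77 TPM in IgE PC. The IgG1 libraries held 111, 123 and 121 TPM in iGC and 24.5, 46.1 and 41.3 TPM in PC. This gene had the smallest fitted change in IgG1, a log2 fold change of -1.20 ± 0.12 (SE), and one of the largest in IgE, -5.12 ± 0.17 (edgeR, adjusted p = 5.02e-07 and 7.80e-13). As fold changes these are 2.29 and 34.8. The 4 sets of libraries did not overlap.

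Ms4a6b was lower throughout. Its levels were 19.6, 18.4 and 20.2 TPM in IgE iGC and 0.78, 0.43 and 0.49 TPM in IgE PC, against 23.4, 18.3 and 19.5 TPM in IgG1 iGC and 2.55, 4.41 and 5.64 TPM in IgG1 PC. The iGC libraries of both isotypes overlapped and the PC libraries did not. The log2 fold change from iGC to PC was -4.33 ± 0.20 (SE) in IgE and -1.88 ± 0.15 in IgG1 (edgeR, adjusted p = 2.25e-11 and 6.56e-08).

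Ms4a4b, the close copy of Ms4a4c, was at 2.39 TPM or less in every library. It was at 1.57, 1.22 and 2.31 TPM in IgE iGC, and in IgE PC it was at 0, 0 and 0.14 TPM. IgG1 libraries were at 2.39, 2.29 and 2.09 TPM in iGC and at 0.27, 0.61 and 0.57 TPM in PC. In IgE PC the 3 libraries together held 3.14 expected counts of Ms4a4b, against 81.4 in IgE iGC, a 25.8-fold ratio per scaled library size with a 95% counting interval of 8.51 to 128. The IgG1 fall was 1.78 ± 0.43 (SE) on the log2 scale (edgeR, adjusted p = 0.00252).

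Ms4a6d was the least abundant member in the sorted groups, and in D6 Ms4a4b was lower. It had 0 counts in all 3 IgE PC libraries, against 28.1 counts in IgE iGC (0.69, 0.44 and 1.04 TPM). Taking 3 counts over the group as the limit that a count of 0 allows makes it 8.91-fold lower in IgE PC. That figure leaves out counting error in IgE iGC, and the lower limit of the 95% counting interval is 6.78-fold. In IgG1 Ms4a6d was at 0.48, 0.61 and 0.75 TPM in iGC and 0.10, 0.12 and 0.27 TPM in PC. This is a log2 fold change of -1.26 ± 0.47 (SE) that passed the threshold narrowly (edgeR, adjusted p = 0.0349). That call was lost with DESeq2 (adjusted p = 0.0665), with no low-count filter (0.0833), with only the groups compared (0.0601), and without IgG1 iGC replicate 2 (0.0979) or 3 (0.0729) or IgG1 PC replicate 1 (0.0710) or 2 (0.128). Counting intervals and limits cover counting error only.

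The difference between the isotypes in this step was tested directly, as the change from iGC to PC in IgE minus that in IgG1. It was below 0 and called for 5 of 6 members, all but Ms4a1, where 23.1% of all genes were called in that direction. It was -3.92 ± 0.21 (SE) for Ms4a6c, -3.23 ± 0.26 for Ms4a4c and -2.45 ± 0.25 for Ms4a6b (edgeR, adjusted p = 1.18e-08, 3.66e-07 and 2.91e-06). For Ms4a4b it was -2.80 ± 0.85 (adjusted p = 0.0153), a call that was lost without IgE PC replicate 1 (-2.21, adjusted p = 0.0527). Without IgE PC replicate 3, the only library of its group with Ms4a4b counts, the fitted value was -6.22 and the call was kept. For Ms4a6d the fitted difference was called (adjusted p = 0.00610), but its size depends on how 0 counts are treated, and at the limit for 0 counts in IgE PC it is -1.90. The members' median was -2.62 with Ms4a6d at that limit, or -3.02 as fitted, against -0.06 over all genes. On the log2(TPM + 1) scale, which compresses low values, limma did not call Ms4a4b (adjusted p = 0.466) or Ms4a6d (0.156). These contrasts share the iGC and PC libraries with the comparisons above.

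**Figure D2:**
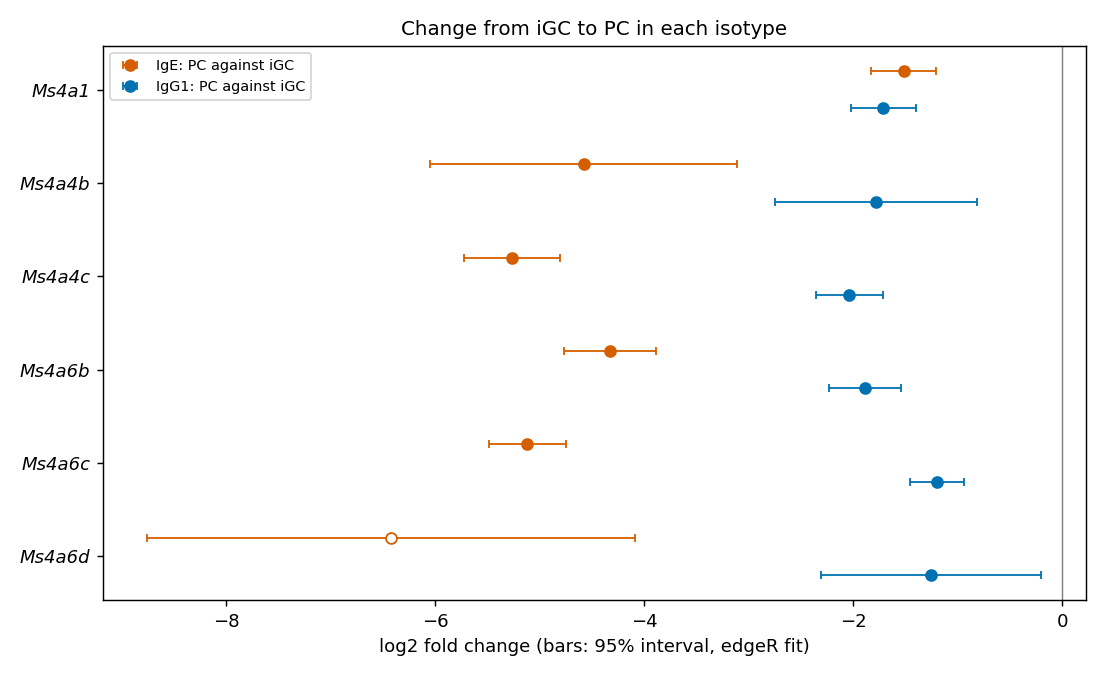
Log2 fold change from iGC to PC (horizontal axis) of each MS4A gene in IgE and IgG1 cells; points are edgeR estimates from 3 libraries a group and bars their 95% intervals. The open point marks Ms4a6d in IgE, where IgE PC had 0 counts and the fitted size is not a bound. The intervals of both isotypes overlap for Ms4a1 and lie apart for the other 5 genes.

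Among plasma cells, the same 5 members were lower in IgE than in IgG1 cells. In this comparison 30.7% of all genes tested were called lower. A fit to only the IgE PC and IgG1 PC libraries tested 4 of the 6 members and called 3 lower, as it did 3741 of 14316 genes. Its filter left out Ms4a4b and Ms4a6d, which passed the main filter through their counts in other groups. The log2 difference was -4.75 ± 0.17 (SE) for Ms4a6c and -4.28 ± 0.21 for Ms4a4c, which are 26.9-fold and 19.5-fold (edgeR, adjusted p = 5.98e-11 and 6.66e-10). For Ms4a6b it was -2.62 ± 0.20, a 6.16-fold difference (adjusted p = 4.58e-08). Ms4a4b had 3.14 expected counts over the IgE PC libraries and 42.7 over those of IgG1 PC, a 10.7-fold ratio (95% counting interval 3.43 to 54.0; edgeR, adjusted p = 0.00134), and without IgE PC replicate 3 it had 0 counts in the IgE PC libraries that remained. With 3 counts in place of 0, Ms4a6d was 4.74-fold lower in IgE PC (19.1 counts in IgG1 PC), and the lower 95% counting limit was 3.49-fold. It was called by edgeR (adjusted p = 0.00101) and not by limma on log2(TPM + 1) (adjusted p = 0.112). None of these 5 genes had an IgE PC library within the range of the IgG1 PC libraries. The share of all genes tested for which this held was not computed. The members' median was -2.92 with Ms4a6d at 3 counts in IgE PC, or -3.75 as fitted, against -0.05 over all genes. The summed plasma cell, B cell and feeder fibroblast markers of these groups did not overlap either, as given above, and their part in these differences was not tested.

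Among the cells sorted as iGC, Ms4a4c and Ms4a6c were already lower in IgE than in IgG1. These 2 of 6 members were called, both lower, where 1.88% of all genes were called lower in IgE iGC. The log2 difference was -1.05 ± 0.14 (SE), or 2.08-fold, for Ms4a4c and -0.83 ± 0.12, or 1.78-fold, for Ms4a6c (edgeR, adjusted p = 4.72e-04 and 5.98e-04). Every IgE iGC library lay below every IgG1 iGC library for both genes. The summed plasma cell markers moved with this difference, at 607 to 680 TPM in IgE iGC and 318 to 328 TPM in IgG1 iGC. Jchain held most of that gap, at 429 to 481 TPM in IgE iGC and 166 to 172 TPM in IgG1 iGC. Irf4 overlapped between the iGC groups, and the other plasma cell markers were higher in IgE iGC without overlap. The part of these markers in the difference was not tested. Differences were -0.18 (95% interval -0.50 to 0.15) for Ms4a6b, -0.41 (-1.32 to 0.50) for Ms4a4b and -0.36 (-1.37 to 0.65) for Ms4a6d, with adjusted p-values of 0.666, 0.741 and 0.814. For Ms4a6d the sign turned on the TPM scale, where IgE iGC was higher by 0.084 on log2(TPM + 1), with no call. Calls in the whole table were few in this comparison and moved with the test used, from 329 to 1503 genes over the alternatives, but Ms4a4c and Ms4a6c were called in each.

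Against the day 6 culture the members moved by very different amounts. D6 is unsorted and was still with the feeder cells, whose markers were highest there, and the part of cell composition in these differences was not tested. The 4 comparisons share the D6 libraries. In iGC cells 5 of 6 members were higher than in D6 in each isotype, where 32.8% of all genes were called higher in IgE iGC and 32.4% in IgG1 iGC. Ms4a4c was at 3.44, 5.04 and 3.42 TPM in D6 and was higher by 4.23 ± 0.18 (SE) on the log2 scale in IgE iGC, which is 18.8-fold, and by 5.28 ± 0.18 in IgG1 iGC, which is 39.0-fold (edgeR, adjusted p = 3.04e-11 and 4.06e-12). Ms4a6c was already at 47.5, 52.3 and 43.2 TPM in D6, and was higher by only 0.57 ± 0.12 in IgE iGC and 1.40 ± 0.12 in IgG1 iGC (adjusted p = 4.82e-04 and 5.26e-08). The smaller value lost its call with limma on log2(TPM + 0.1) (0.41, adjusted p = 0.0654). Ms4a6b, at 2.90, 2.45 and 3.14 TPM in D6, was higher by 2.42 and 2.60.

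Ms4a4b had 15.1 counts over the D6 libraries (0.20, 0.44 and 0.21 TPM) and was higher in iGC by 2.88 in IgE and 3.29 in IgG1 (edgeR, adjusted p = 1.25e-04 and 2.77e-05). Ms4a1 was higher by 0.75 and 0.81 (adjusted p = 1.79e-04 and 8.72e-05). Ms4a6d, at 0.29, 0.34 and 0.37 TPM in D6, differed by 0.63 (95% interval -0.44 to 1.71) in IgE iGC and 0.99 (-0.03 to 2.02) in IgG1 iGC, and neither was called (adjusted p = 0.261 and 0.0709). Limma on log2(TPM + 1) did call both (0.36 and 0.27, adjusted p = 0.00852 and 0.0355), and edgeR on only these groups called the second (1.05, adjusted p = 0.0254). Fits to only the groups compared tested 5 members in IgE iGC and called 5 higher, as they did 5724 of 14783 genes. In IgG1 iGC such a fit tested 6 members and called 6 higher, as it did 5793 of 14806 genes.

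Plasma cells of the 2 isotypes stood on opposite sides of the day 6 level for Ms4a4c and, in edgeR, for Ms4a6b. In IgE PC 5 of 6 members were lower than in D6, where 39.5% of all genes were called lower. Ms4a6c was lower by a log2 difference of -4.55 ± 0.17 (SE), or 23.4-fold, Ms4a6b by -1.91 ± 0.21 and Ms4a4c by -1.03 ± 0.26 (edgeR, adjusted p = 1.76e-12, 6.46e-07 and 0.00187). Ms4a1 was at -0.77 ± 0.14 (edgeR, adjusted p = 1.19e-04). With 3 counts in place of 0, Ms4a6d was 5.78-fold lower, with a lower 95% counting limit of 4.34-fold. Ms4a4b was not called, at 3.14 counts against 15.1, a 3.77-fold ratio with a counting interval of 1.07 to 20.3 (adjusted p = 0.0770). It was called without IgE PC replicate 3 (adjusted p = 0.00219), with total-count scaling (0.0232) and with limma on log2(TPM + 0.1) (0.00244). A fit to only IgE PC and D6 tested 4 of the 6 members and called 4 lower, as it did 6288 of 14760 genes.

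In IgG1 PC, 3 members were higher than in D6 and 1 was lower, where 35.9% of all genes were called higher and 36.0% lower. Ms4a4c was higher by 3.25 ± 0.18 (SE), or 9.50-fold (edgeR, adjusted p = 3.86e-10). Ms4a4b was higher by 1.51 ± 0.54 (adjusted p = 0.0204), a call lost without D6 replicate 1 (adjusted p = 0.0644) or 3 (0.0714) or IgG1 PC replicate 2 (0.0794), with total-count scaling (0.0514), and with limma on log2(TPM + 1) (0.186) or log2(TPM + 0.1) (0.159). Ms4a6b was higher by 0.72 ± 0.16 (adjusted p = 0.00112), but its TPM ranges overlapped and limma on log2(TPM + 1) did not call it (0.40, adjusted p = 0.0591). Ms4a1 was lower by a log2 difference of -0.90 ± 0.14 (adjusted p = 3.16e-05). Ms4a6c was at 0.20 (95% interval -0.06 to 0.46, adjusted p = 0.132), and its direction turned with the scale: without IgG1 PC replicate 1 it was called higher (0.37, adjusted p = 8.32e-05), with total-count scaling it was at -0.070, and on log2(TPM + 1) it was called lower (-0.39, adjusted p = 0.0479). Ms4a6d was at -0.27 (-1.39 to 0.86, adjusted p = 0.651), at 0.11 without IgG1 PC replicate 2, and called lower with limma on log2(TPM + 0.1) (-0.77, adjusted p = 0.0255). A fit to only IgG1 PC and D6 tested 4 of the 6 members. It called 2 higher and 1 lower, as it did 5072 and 5046 of 15027 genes.

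**Figure D3:**
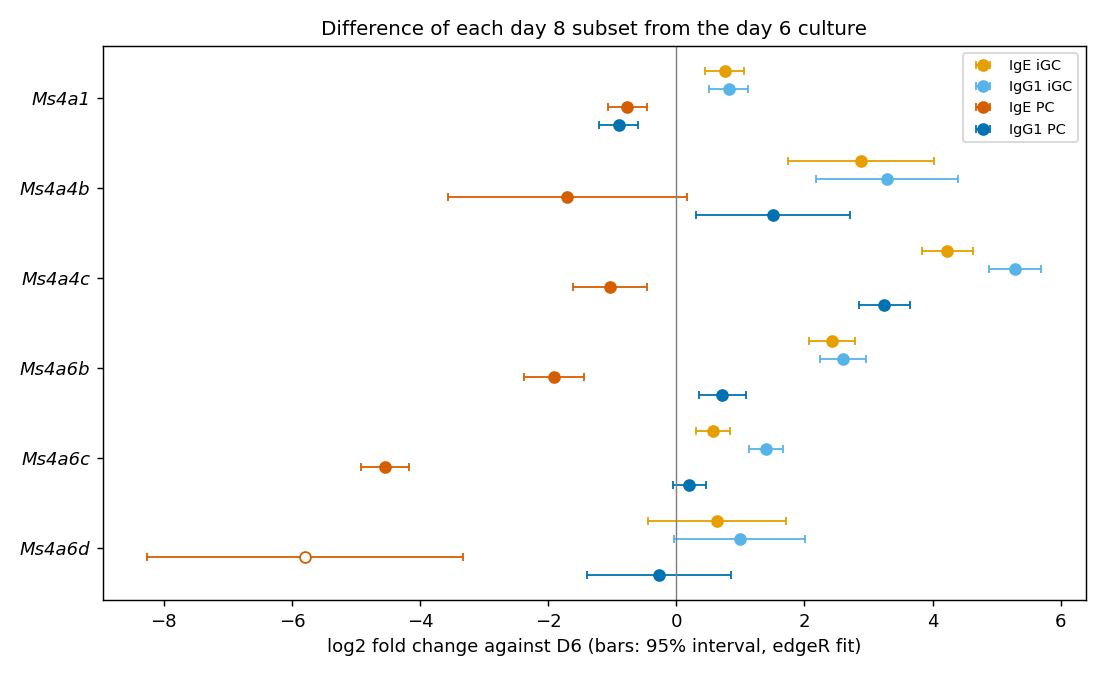
Log2 fold change of each MS4A gene against the day 6 culture (horizontal axis) in the 4 sorted groups; points are edgeR estimates from 3 libraries a group and bars their 95% intervals. The open point is Ms4a6d in IgE PC, which had 0 counts. Ms4a4c lies between 3.25 and 5.28 in all sorted groups except IgE PC, where it is at -1.03.

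The order of the groups therefore differed between members. For Ms4a4c it ran from IgG1 iGC through IgE iGC, IgG1 PC and D6 to IgE PC, and each neighbouring pair differed beyond its spread (IgE iGC and IgG1 PC did not overlap and were not tested against each other). Ms4a6c had the same order except that D6 and IgG1 PC could not be ordered. For Ms4a1, D6 stood between the iGC and the PC groups, and the isotypes could not be ordered at either stage. In Ms4a6b and Ms4a4b the iGC groups could not be ordered. IgG1 PC stood above D6 for both in edgeR, a call that several alternatives did not make, and for Ms4a4b D6 and IgE PC could not be ordered.

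The make-up of the Ms4a6 copies shifted between groups. Ms4a6c made up 93.7% ± 1.2 (SD, n = 3) of the summed TPM of Ms4a6b, Ms4a6c and Ms4a6d in D6, 84.9% ± 2.3 in IgG1 iGC, 89.6% ± 1.9 in IgG1 PC, 75.8% ± 1.9 in IgE iGC and 63.2% ± 6.0 in IgE PC. Ms4a6b made up 5.63% ± 1.14 in D6, 14.7% ± 2.3 in IgG1 iGC, 10.03% ± 1.71 in IgG1 PC, 23.3% ± 1.5 in IgE iGC and 36.8% ± 6.0 in IgE PC. In both IgE groups the Ms4a6b share was above that of every IgG1 and D6 library. Ms4a6d never exceeded 1.28%. In expected counts, which are not per length, the Ms4a6b share was 8.74% in D6 and 25.7% in IgE iGC, and the Ms4a6d share in IgE iGC was 0.469% against 0.873% in TPM. These shares are a description, without a test, and the IgE PC shares rest on a sum of under 2 TPM in each library.

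Adding up the copies did not alter the main comparisons of Ms4a4c and Ms4a6c, which held most of the counts in the sums. In IgG1 iGC, for example, Ms4a4c had 8382 counts and Ms4a4b 127. The sums therefore cannot show how the division of reads affects Ms4a4b or Ms4a6d. The Ms4a4 sum, of Ms4a4a, Ms4a4b, Ms4a4c and Ms4a4d counts, differed by -4.24 (log2) between IgE PC and IgG1 PC. It differed by -1.03 between IgE iGC and IgG1 iGC, by -5.24 from iGC to PC in IgE and by -2.02 in IgG1. Summed Ms4a6 counts gave -4.26, -0.69, -4.88 and -1.30 for the same comparisons. The difference of changes was -3.22 for the Ms4a4 sum and -3.58 for the Ms4a6 sum (edgeR, adjusted p = 5.13e-07 and 2.10e-08). Division of reads between copies of the same subfamily cannot change these sums, whereas division with Prdm11 or Ms4a2 can. The Ms4a6 sum did not differ from D6 in IgG1 PC (0.25, 95% interval -0.01 to 0.52, adjusted p = 0.0705).

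RefSeq promoter sequences (GRCm38.p6) were found for Ms4a4b, Ms4a4c, Ms4a6b and Ms4a6c, and not for Ms4a1 and Ms4a6d. The 250 bases before the start of Ms4a4b and Ms4a4c are shown because these neighbours are similar in sequence, at 80.1% of 231 aligned bases. Their levels nevertheless differed by many fold in every iGC library. The RefSeq start of Ms4a4c lies inside the span that GENCODE gives the gene, so its window is within that span and overlaps no annotated exon (0 bases), whereas 5 bases of the Ms4a4b window and 106 of the Ms4a6b window lie in exons of those genes. Capitals mark the octamer ATTTGCAT, the element bound by OCT factors in immunoglobulin promoters, and GAGGAA, the core bound by PU.1 and SPI-B.
Ms4a4c, chr19:11407411-11407660, plus strand: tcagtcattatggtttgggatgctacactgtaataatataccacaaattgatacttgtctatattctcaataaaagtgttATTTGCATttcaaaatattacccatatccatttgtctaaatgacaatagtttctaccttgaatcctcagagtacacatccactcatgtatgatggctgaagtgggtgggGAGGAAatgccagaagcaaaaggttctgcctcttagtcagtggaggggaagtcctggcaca
Ms4a4b, chr19:11443308-11443557, plus strand: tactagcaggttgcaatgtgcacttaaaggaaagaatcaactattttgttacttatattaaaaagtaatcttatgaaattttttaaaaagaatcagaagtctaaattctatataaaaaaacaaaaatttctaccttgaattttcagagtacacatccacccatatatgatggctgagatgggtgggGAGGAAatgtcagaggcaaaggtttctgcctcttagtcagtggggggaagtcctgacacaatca

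Both strands were searched. The octamer was present in the Ms4a4c window, at -170 to -163 from the start, and is found in 1.60% of 32851 promoter windows of this length. GAGGAA was present in Ms4a4c at -61 to -56 and in Ms4a4b at -64 to -59, and is found in 23.3% of windows. The interferon response core (GAAA, any 2 bases and GAAA, in 2.98% of windows) and the STAT6 spacing (TTC, any 4 bases and GAA, in 5.85%) had no match in the 4 windows. The windows of Ms4a6b and Ms4a6c were identical at 85.1% of the 175 bases that aligned, out of 250, and held none of these motifs. A match is a description of the letters and does not show that a factor binds.

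Of the 13 other Ms4a genes in the table, 11 stayed below 1 TPM in every library, 2 of them at 0 throughout. Ms4a7 and Ms4a4a, which lie between Ms4a1 and Ms4a4c, exceeded 1 TPM. Ms4a7, described mainly in macrophages, was at 7.70, 8.24 and 9.76 TPM in IgG1 iGC and 3.23, 2.38 and 2.93 TPM in IgE iGC, a log2 difference of -1.62 ± 0.30 (SE; edgeR, adjusted p = 0.00462), which limma on log2(TPM + 0.1) did not call (adjusted p = 0.0611). In plasma cells it was at 0.05, 0.32 and 0.42 TPM for IgE and 0.95, 2.25 and 2.19 TPM for IgG1, and IgE was lower by a log2 difference of -2.96 ± 0.39 (adjusted p = 1.31e-05). Ms4a4a had 3 counts over the IgE PC libraries and 48 over those of IgG1 PC, a 12.0-fold ratio with a 95% counting interval of 3.86 to 60.1 (edgeR, adjusted p = 2.01e-04), and its iGC groups differed by -0.19 (adjusted p = 0.891).

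Tmem176a and Tmem176b, related membrane proteins outside this cluster, had another pattern. They were at 514 ± 30 and 851 ± 31 TPM (SD, n = 3) in D6 and between 82.0 and 276 TPM on average in the sorted groups. From iGC to PC Tmem176a rose by 0.92 in IgE and 0.75 in IgG1 and Tmem176b by 0.96 and 1.00, with TMM scaling. The difference between those changes was 0.17 (95% interval -0.02 to 0.37) for Tmem176a and -0.04 (-0.33 to 0.26) for Tmem176b, with no call in either (edgeR, adjusted p = 0.125 and 0.851). Tmem176a was called with DESeq2 (0.21, adjusted p = 0.0394) and without IgG1 PC replicate 1 (0.25, adjusted p = 0.00294), and turned to -0.060 with total-count scaling. The sign for Tmem176b turned with DESeq2 (0.0029) and without 3 of the libraries in turn, to 0.11 at most.

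**Figure D4:**
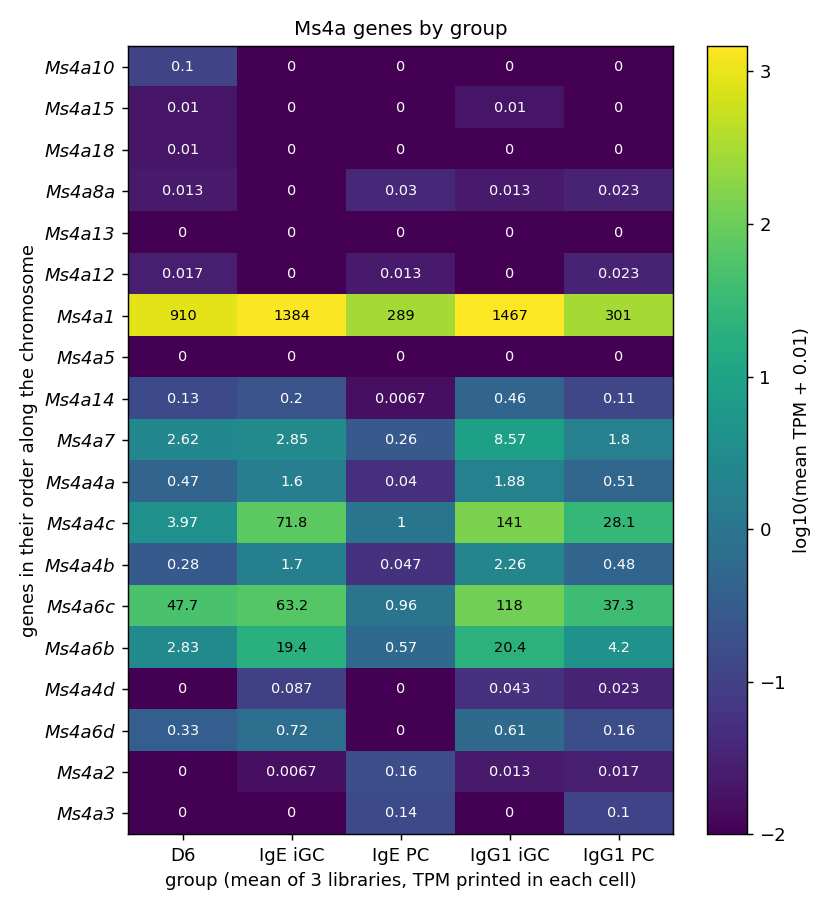
Mean TPM of 3 libraries for each of the 19 Ms4a genes (rows, in their order along chromosome 19) in the 5 groups (columns); the colour scale is log10(mean TPM + 0.01) and the mean is printed in each cell. From Ms4a14 to Ms4a6d each gene is lower in IgE PC than in IgG1 PC, though Ms4a4d had only 0 against 4 counts. The next genes, Ms4a2 and Ms4a3, are higher in IgE PC, at 0.16 and 0.137 TPM against 0.017 and 0.10 TPM in IgG1 PC. Ms4a1 is at 289 TPM in IgE PC and 301 TPM in IgG1 PC, and the genes before Ms4a1 are at or near 0 throughout.

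Other genes of the same surface and regulatory setting were taken from lists. Of 15 genes for CD20 partners and other B cell surface molecules, 3 were higher and 10 lower in IgE PC than in IgG1 PC, where 27.4% of all genes were called higher and 30.7% lower, with a median of -0.61 against -0.05 over all genes. The largest differences were in Cd72, an inhibitory receptor, at -3.73 ± 0.12 (SE), Cd40, the receptor for T cell help, at -1.44 ± 0.10, and Cr2, a complement receptor, at -1.43 ± 0.15 (edgeR, adjusted p = 3.19e-11, 1.22e-08 and 1.64e-06). Of 14 regulators 5 were higher and 4 lower, with a median of 0.14. Among these Spib, an ETS factor of B cells, was at -2.20 ± 0.14, Pax5, the factor that maintains B cell identity, at -1.16 ± 0.15 and Ebf1, which acts with it, at -0.89 ± 0.10 (adjusted p = 1.03e-08, 1.82e-05 and 3.22e-06).

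Of 14 interferon-stimulated genes, listed because Ms4a4c is known to respond to interferon, 9 were higher and 2 lower in IgE PC than in IgG1 PC, where 27.4% of all genes were called higher and 30.7% lower, with a median of 0.46 against -0.05 over all genes. The largest differences were in Oas1a, a sensor of double-stranded RNA, at -2.26 ± 0.20 (SE), Ifi44 at 1.17 ± 0.45 and Rsad2, an antiviral enzyme, at 1.01 ± 0.37 (edgeR, adjusted p = 1.92e-07, 0.0351 and 0.0291). Ifi44 and Rsad2 were below 1 CPM on average in both groups. The Rsad2 call was lost without IgE PC replicate 1 (adjusted p = 0.113) or IgG1 PC replicate 3 (0.124), and its sign turned with limma on log2(TPM + 1), at -0.039. The Ifi44 call was lost without IgE PC replicate 1 (0.143) or 3 (0.0709) or IgG1 PC replicate 2 (0.141) or 3 (0.107). In IgE iGC against IgG1 iGC, where Ms4a4c was lower, the median of the 14 was 0.05 against 0.01 over all genes.

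The genes outside the family whose pattern over the 15 libraries was most like each member were found among 8916 genes by Pearson's r of log2(CPM + 0.5), as a description. For Ms4a1 they were Baz1a (r = 0.989) and Znrf2 (r = 0.987). Ms4a4c was most like Il12a (r = 0.995), a cytokine subunit gene that was at 27.1 TPM in IgG1 iGC, 18.6 TPM in IgE iGC, 5.74 TPM in IgG1 PC, 2.18 TPM in D6 and 0.647 TPM in IgE PC on average, and Ackr2 (r = 0.991), a scavenging chemokine receptor. Ms4a6c was most like Ffar2 (r = 0.994), a receptor for short-chain fatty acids that was at 5.62 TPM in D6 and 0.20 TPM in IgE PC, and Plaur (r = 0.985), the urokinase receptor. Ms4a6b was most like Gimap3 (r = 0.996), a GTPase gene of lymphocytes, and Evl (r = 0.995). Ms4a4b was most like Crtc2 (r = 0.974) and Scd1 (r = 0.970), and Ms4a6d most like Them6 (r = 0.935) and Mapk11 (r = 0.927), both members resting on few counts. Among the members themselves r ranged from 0.629 for Ms4a1 with Ms4a4c to 0.946 for Ms4a4b with Ms4a4c. Ms4a4b and Ms4a4c share 64 windows of 76 bases, and the part of divided reads in their r was not tested. All points share the 15 libraries and their 5 groups.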

How the data were processed

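RNA-seq of polyA RNA (76-base, single-end, strand-specific reads) was measured in 15 libraries, per the labels' protocols. The submitters' processing notes name cutadapt 1.9.1, STAR 2.5.2a, RSEM 1.3.0, DESeq2 1.12.3 and GRCm38, without roles or settings; the annotation is not given in the sources used here. The authors deposited RSEM expected counts, estimated counts that need not be whole, and TPM values, which are scaled for transcript length and library total. No column of per-sample values was left unmapped (0). A separate table of gene names gave symbols for 51633 of 51912 identifiers.

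Expected counts were rounded. Genes were kept by filterByExpr (minimum count 10, minimum total 15), and libraries were scaled by TMM (factors 0.764 to 1.15). One mean per group was fitted over all 15 libraries with edgeR 4.0.16 (R 4.3.3; glmQLFit, robust, and glmQLFTest; 10 residual degrees of freedom; biological coefficient of variation 10.4%). P-values are Benjamini-Hochberg adjusted over 15692 genes, with 0.05 as the threshold, and 9 comparisons were made. The standard error is the log2 fold change divided by the square root of F, and 95% intervals follow from it. The scripts were tested on simulated data. Counting intervals are exact binomial (Clopper-Pearson). Positions and transcripts came from GENCODE vM21 and promoters from RefSeq; 1 motif that was searched is not reported here. Alternatives were DESeq2 1.42.0, limma 3.58.1 on log2(TPM + 1) and log2(TPM + 0.1), other scalings, filters and groups, a replicate block, unrounded counts, and each library left out.

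The 6 genes were named by symbol. The other Ms4a, Tmem176a and Tmem176b genes were named where they reached 1 TPM in a library, and from each list the 3 genes with the largest difference between IgE PC and IgG1 PC were named. The members, lists and rules were chosen with earlier results of these data known.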

Additional observations from a re-analysis of the deposited data

Results flagged for a closer look

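The change from iGC to PC in IgE minus that in IgG1 passed the threshold (edgeR, test of the difference itself, adjusted p under 0.05) for these genes, with the log2 difference given. Among the members it was -2.80 for Ms4a4b, -3.23 for Ms4a4c, -2.45 for Ms4a6b, -3.92 for Ms4a6c and -5.16 for Ms4a6d, the last a fitted value that is no bound because IgE PC had 0 counts. Among the other Ms4a genes it was -3.21 for Ms4a4a, which had 3 counts in IgE PC, and -1.34 for Ms4a7 (adjusted p = 0.0431). The Ms4a7 call was lost without any 1 of 10 libraries: all 3 of IgE iGC, all 3 of IgG1 iGC, IgE PC replicates 1 and 2, and IgG1 PC replicates 2 and 3.

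Among the listed surface genes the difference was -4.13 for Cd72, -1.26 for Cd40 and -1.002 for Cr2. Among the listed regulators it was -2.08 for Spib, -0.99 for Pax5 and -0.82 for Ebf1, and Oas1a of the interferon-stimulated list was at -1.96. Of the 14 regulators 3 were called higher and 4 lower, with a median of -0.08 against -0.06 over all genes. Of the 15 surface genes 2 were called higher and 9 lower (median -0.54), and of the 14 interferon-stimulated genes 3 and 2 (median 0.44). Over all 15692 genes tested, 3101 were called higher and 3632 lower. The summed plasma cell markers, mostly Jchain, were at 9926 to 11006 TPM in IgE PC and 6384 to 7728 TPM in IgG1 PC. They moved with these differences, and their part in them was not tested.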

How the results depend on the processing

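Over all alternatives, 814 of 855 values of the members kept their direction and side of the threshold, 9 reversed, 12 gained a call and 20 lost one. Of the 647 values of other named genes, 599 kept both. Of 141 counts of called genes, 132 stayed within 1.5 times the main count. The exceptions were IgE iGC against IgG1 iGC, with 607 genes in the main analysis, 937 with DESeq2, 340 with log2(TPM + 0.1), 1503 with only the groups compared, and 329 to 387 without 1 of 5 iGC libraries (329 to 417 over all libraries left out), and the difference of changes, with 6733 genes and 4345 with log2(TPM + 1). With only the groups compared, some low members were removed by the filter and gave no value, as Ms4a4b and Ms4a6d were between the PC groups.

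No member value that had been called reversed. With total-count scaling Ms4a1 turned to -0.13 in IgE PC against IgG1 PC and to -0.052 in the difference of changes, Ms4a6c to -0.070 in IgG1 PC against D6, and the difference of changes of Tmem176a to -0.060. With log2(TPM + 1) the reversed values were 0.084 for Ms4a6d in iGC, -0.39 for Ms4a6c in IgG1 PC against D6, 0.19 for the difference of changes of Ms4a7 and, for Rsad2, -0.039 in PC and -0.093 in the difference of changes. With log2(TPM + 0.1) they were 0.16 for Ms4a6d, -0.40 for Ms4a6c, and -0.085 and -0.23 for Rsad2. The difference of changes of Tmem176b was 0.0029 with DESeq2 and with RLE size factors. With 1 library left out it ran from -0.14 to 0.11, Ms4a1 in PC from -0.041 to 0.37, Ms4a6d in IgG1 PC against D6 from -0.82 to 0.11 and Ms4a4a in iGC from -0.32 to 0.082. The cause was not tested.

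Total-count scaling shifted the median over all genes (log2) from -0.05 to -0.30 for IgE PC against IgG1 PC, from -0.08 to -0.55 for PC against iGC in IgE, from 0.01 to -0.22 in IgG1 and from -0.06 to -0.30 for the difference of changes. Calls higher and lower went from 4303 and 4816 to 2272 and 7265, from 4788 and 5270 to 2651 and 8743, from 4720 and 4553 to 3226 and 6840, and from 3101 and 3632 to 1542 and 5603. Against D6 they went from 5792 and 6191 to 3311 and 9032 in IgE PC and from 5636 and 5645 to 3964 and 7370 in IgG1 PC. The 5 members lower in IgE PC than in IgG1 PC stayed called under it.

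Same-numbered libraries did not deviate together: the mean correlation over 30 pairs was -0.01 (-0.20 to 0.09), and 3 of 15 libraries were closest to their own number. With the replicate number as a block the counts were 9005 genes for PC, 580 for iGC, 9950 and 9152 for PC against iGC in IgE and IgG1, 6533 for the difference of changes, and 10810, 10663, 11928 and 11167 for IgE iGC, IgG1 iGC, IgE PC and IgG1 PC against D6. It changed no call of a member; Ms4a7 lost its difference of changes (adjusted p = 0.05001). Counts under about 20 a group, as for Ms4a4b and Ms4a6d in IgE PC, limit the precision of those ratios.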

Other observations

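Ms4a2, the beta chain of the high-affinity IgE receptor, and Ms4a3, its neighbour in the cluster, had reads mainly in plasma cells. Both are named here after their values were seen, and both were too low to be tested by edgeR in the main filter. Ms4a2 had 4, 5 and 11 counts in the IgE PC libraries and 0, 3 and 2 counts in IgG1 PC, and at most 1 count in any iGC or D6 library. Its level in IgE PC was 0.19, 0.13 and 0.16 TPM. Fcer1a, the alpha chain that the receptor needs to bind IgE, was at 0 TPM in all IgE PC and IgG1 PC libraries, and Kit, a mast cell receptor, was at 0.05 to 0.16 TPM in IgE PC. Ms4a4b shares 0.418% of its 76-base windows with Ms4a2, and every Ms4a2 count was whole. Ms4a3 had 5, 4 and 4 counts in IgE PC and 4, 1 and 5 counts in IgG1 PC, and 0 counts in all other libraries.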
